A study of Rattus norvegicus with 38 samples.

Results

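The question was whether heart failure changed gene expression differently in the inferior sinoatrial node (iSAN) and in the left atrium (LA) of the rat. The libraries were chosen by their region label, which gave 16 of the 38 libraries of the series. They form 4 groups of 4: failing iSAN (titles iSAN0409, iSAN0506, iSAN0507 and iSAN0508), healthy iSAN (SB_0920, SB_0921, SB_1001 and SB_1002), failing LA (LA_0409, LA_0506, LA_0507 and LA_0508) and healthy LA (LA_0920, LA_0921, LA_1001 and LA_1002). All were taken from male Sprague-Dawley rats at 10 weeks of age. The protocol on every library describes a constriction of the ascending aorta in pups, with later left ventricular hypertrophy. It stands on the healthy libraries too, and the treatment of the healthy rats is not stated in the labels. The 4-digit code at the end of a title recurs in each region and served as a block, and 0 codes occur in both health states, so health state and any batch that follows the codes cannot be told apart. The labels do not tie a code to an animal, so the p-values refer to the spread between these libraries, which may be technical.

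The sinoatrial node is the pacemaker tissue of the right side of the heart, in which small, weakly contractile myocytes lie in fibrous tissue and fire spontaneously. The left atrium is working muscle that receives blood from the lungs and fills the left ventricle, and it is exposed to raised filling pressure when that ventricle stiffens. Remodelling in pressure overload is known to involve muscle growth, fibrosis, altered ion channels and altered metabolism in both kinds of tissue.

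The files carry Ensembl gene IDs without names, and the reference table used here matched 0 of the 24057 IDs. Gene names, pathway lists, cell type markers and sequences were therefore not used. The labelled tissues were not checked against their defining markers. Genes are described below as groups and by their measured pattern, with 4 shown by ID. In pieces of tissue, fewer cells of a type and less RNA per cell cannot be told apart.

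The response differed between node and atrium in 223 of 14920 genes (1.49% of those tested) at an adjusted p under 0.05 with edgeR's quasi-likelihood test and the code as a block. The quantity tested was an interaction: the log2 difference iSAN minus LA in failing hearts minus the same difference in healthy hearts. It was positive in 92 genes (0.617%), called node-side genes here, whose failing-minus-healthy change lay higher in the node than in the atrium. It was negative in 131 genes (0.878%), called atrium-side genes, whose change lay higher in the atrium. An unadjusted p under 0.05 was found for 2686 genes, an adjusted p under 0.1 for 610 and one under 0.01 for 5.

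The 223 genes differed in response by amounts that were mostly beyond 2-fold. They were chosen by a test of this same quantity, so their sizes are a description. The median interaction was 1.56 on the log2 scale in the node-side genes and -1.35 in the atrium-side genes, against a median size of 0.23 over all genes tested. A size of at least 2-fold was reached by 79 of the 92 node-side genes and by 88 of the 131 atrium-side genes, and one of at least 4-fold by 32 and 38. Both groups spanned rare and abundant transcripts. The mean level over the 16 libraries ran from -1.61 to 7.76 log2 CPM (library-scaled counts) in node-side genes and from -1.66 to 8.59 in atrium-side genes, with medians of 4.00 and 4.16 against 4.04 for all genes tested.

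How many genes passed depended on which libraries were left out and on the block. With the block, a library whose partner of the same code is removed no longer informs the interaction. Each removal below therefore acts nearly as removal of an iSAN and LA pair. Without the code as a block 139 genes passed (66 node-side and 73 atrium-side), of which 100 were among the 223. Removing iSAN0409 or LA_0409 raised the number to 491. Removing iSAN0506 or LA_0506 gave 30 genes, SB_0920 or LA_0920 gave 28, and SB_1001 or LA_1001 gave 6. Removing SB_0921 gave 99 genes and LA_0921 gave 109, while SB_1002 gave 14 and LA_1002 gave 2. Of the 223, 67 passed in at least 8 of the 16 fits and 2 in all 16. These 16 fits count each pair from both of its sides.

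The split between the directions rested on scaling. On log2(TPM + 1) values without further scaling the median interaction of all genes was 0.25, against -0.04 with TMM (trimmed mean of M values) scaling, and limma then called 93 node-side and 26 atrium-side genes. After TMM rescaling of the TPM values, limma called 46 and 63. Of the 223, 77 were still called in the unscaled and 95 in the rescaled fit, and 1 changed sign in the unscaled one.

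The most frequent pattern among the 223 genes was a change that passed in the atrium and not in the node. Of the 223, 120 passed for health state in LA and not in iSAN (53.8%, against 17.2% of all genes tested). Another 49 passed in both with the same sign and a larger change in LA (22%, against 18.9%), and 33 passed in iSAN and not in LA (14.8%, against 11%), both shares near those of all genes. A further 15 passed in both with opposite signs (6.73%), 3 passed in both with the same sign and a larger change in iSAN (1.35%, against 11.5%), and 3 passed in neither (1.35%, against 41.2%). The health effects came from a fit of the same 16 libraries without the code, since codes are nested in health state, and passed for 41.7% of all genes tested in iSAN and 47.8% in LA. They are parts of the contrast that chose the genes, so these counts are a description. Across all 14920 genes, 31 (0.208%) passed in both regions with opposite signs.

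**Figure D1:**
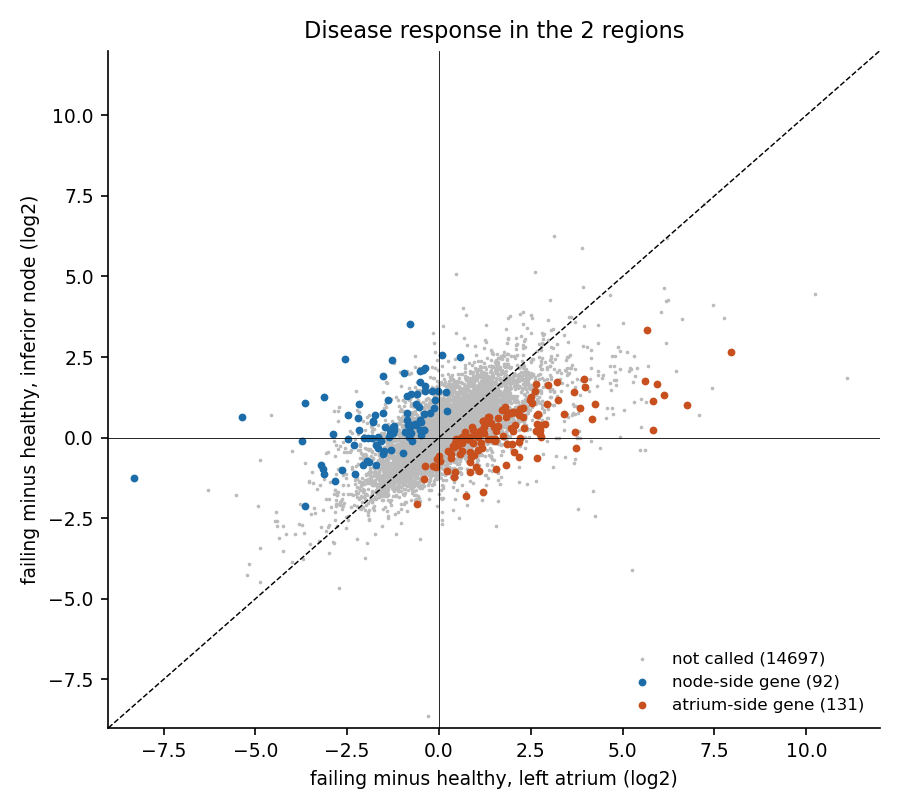
Each point is 1 of 14920 genes, with the log2 failing-minus-healthy difference in LA on the x axis and in iSAN on the y axis; the dashed line marks equal responses. The 131 atrium-side genes lie below the line, mostly to the right of 0 in LA with a median of 1.53, and the 92 node-side genes lie above it with a median of -1.28 in LA.

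The atrium-side genes were mainly genes raised in the failing left atrium. The health effects of both regions enter the contrast that chose the genes, so these shares are a description. In LA 116 of the 131 passed as higher in failing hearts (88.5%, against 25.2% of all genes tested). Another 3 passed as lower (2.29%, against 22.6%). In iSAN 38 passed as higher (29%, against 19.8%) and 20 as lower (15.3%, against 21.9%). The median failing-minus-healthy difference was 1.53 on the log2 scale in LA and 0.16 in iSAN. Of the 131, 72 passed in LA alone, and in 33 of these the node value pointed down while the atrium rose. The 6 genes that passed with opposite signs rose in LA and fell in iSAN. On unscaled log2(TPM + 1) values limma still called 96 of the 116 rises in LA and 12 of the 20 falls in iSAN, and on rescaled values 112 and 19.

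The node-side genes were mainly genes lowered in the failing left atrium. Both health effects are parts of the contrast that chose the genes, so these shares are a description. In LA 68 of the 92 passed as lower in failing hearts (73.9%, against 22.6% of all genes tested). None passed as higher there, against 25.2%. In iSAN 31 passed as higher (33.7%, against 19.8%) and 11 as lower (12%, against 21.9%). The median difference was -1.28 on the log2 scale in LA and 0.36 in iSAN. The 22 genes that passed in iSAN and not in LA all rose in iSAN, and in 18 of them the LA value pointed down. The 9 genes that passed with opposite signs rose in iSAN and fell in LA. On unscaled log2(TPM + 1) values limma still called 62 of the 68 falls in LA and 29 of the 31 rises in iSAN, and on rescaled values 62 and 30.

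Seen as a difference between tissues, many atrium-side genes were called higher in the node in healthy hearts and not in failing ones. Both differences are terms of the contrast that chose the genes, so these shares are a description. In healthy hearts 78 of the 131 were higher in iSAN than in LA (59.5%, against 8.02% of all genes tested). Only 2 were higher in LA (1.53%, against 4.31%) and 51 did not pass. In failing hearts 3 were higher in iSAN (2.29%, against 14.5%), 77 were higher in LA (58.8%, against 14.4%) and 51 did not pass. Of the 78 genes higher in the healthy node, 51 had no call between the tissues in failing hearts, 24 were higher in LA and 3 were still higher in iSAN. The median iSAN-minus-LA difference was 0.73 on the log2 scale in healthy and -0.55 in failing hearts.

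Node-side genes stood on both sides in the healthy heart and mostly on the node side in the failing one. Here too the differences are terms of the contrast that chose the genes. The shares and the changes of sign are thus a description. In healthy hearts 30 of the 92 were higher in iSAN (32.6%, against 8.02% of all genes tested). Another 16 were higher in LA (17.4%, against 4.31%) and 46 did not pass. In failing hearts 84 were higher in iSAN (91.3%, against 14.5%), 1 was higher in LA (1.09%, against 14.4%) and 7 did not pass. All 30 genes that were higher in the healthy node were higher in the failing node as well, a sign that a positive interaction fixes. Of the 16 that were higher in the healthy atrium, 8 were higher in the failing node. The median iSAN-minus-LA difference was 0.18 on the log2 scale in healthy and 1.82 in failing hearts. The fitted difference changed sign between health states in 40 node-side and 102 atrium-side genes, together 63.7% of the 223, against 30.1% of all genes tested.

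The tissues differed in more genes in failing than in healthy hearts. In failing hearts 4312 of 14920 genes passed between iSAN and LA (28.9%), 2162 higher in the node and 2150 higher in the atrium. In healthy hearts 1839 passed (12.3%), 1196 higher in the node and 643 in the atrium. These numbers were not compared by a test of their own. The failing number was 2258 without iSAN0506 and 2343 without LA_0506. The healthy one was 857 and 859 without SB_0921 and LA_0921, 656 and 659 without SB_1001 and LA_1001, and 757 and 752 without SB_1002 and LA_1002. With limma and no scaling of log2(TPM + 1), 4928 genes were higher in the failing node and 335 in the failing atrium.

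The differences within each code, from which the interaction chose these genes, are given as a description. For node-side genes the median iSAN-minus-LA difference in log2 CPM was 1.21, 2.04, 1.75 and 2.11 in the failing pairs of iSAN0409, iSAN0506, iSAN0507 and iSAN0508. It was 0.06, 0.21, 0.28 and 0.18 in the healthy pairs of SB_0920, SB_0921, SB_1001 and SB_1002. The pair of iSAN0409 thus lay nearest to the healthy pairs. The same was seen for atrium-side genes, with -0.30, -0.70, -0.52 and -0.67 in failing codes and 0.66, 0.66, 0.73 and 0.86 in healthy codes, in the same order. In 221 of the 223 genes the 4 failing differences did not overlap the 4 healthy ones, against 12.1% of all genes tested, a separation that the choice of the genes fixes.

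**Figure D2:**
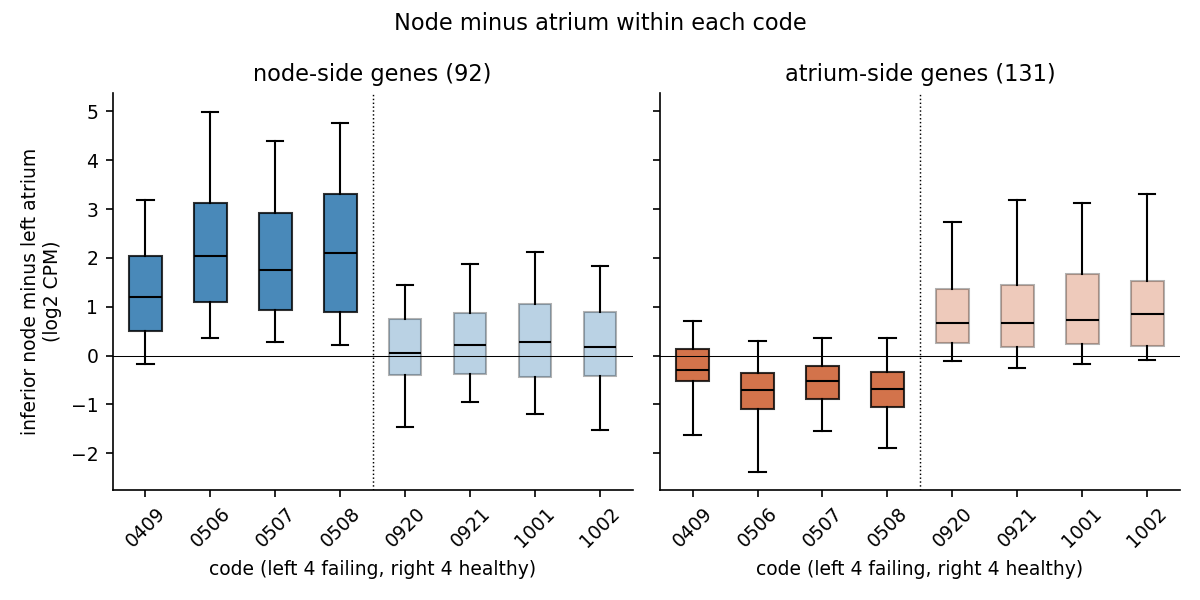
Boxes show the iSAN-minus-LA difference in log2 CPM within each of the 8 codes (x axis), over 92 node-side genes on the left and 131 atrium-side genes on the right, with quartiles, the median as a line and whiskers from the 5th to the 95th percentile. Failing codes (dark) lie above healthy codes (pale) for node-side genes, with medians from 1.21 to 2.11 against 0.06 to 0.28, and below them for atrium-side genes.

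The 16 libraries held between 18702643 and 26501672 estimated counts and between 16801 and 17344 detected genes. The 10 most abundant genes took 13.5% to 26.4% of the counts in failing iSAN, 20.3% to 28.3% in healthy iSAN, 21.7% to 28.0% in failing LA and 22.7% to 24.3% in healthy LA. The TMM factors reached from 0.959 to 1.225 in failing iSAN and from 0.893 to 1.049 in the other 3 groups. The part of these library properties in the results was not tested.

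Among the genes that passed, had a mean of at least 1 log2 CPM and had failing differences apart from the healthy ones, the 2 with the largest interaction in each direction are described by ID. The atrium-side gene ENSRNOG00000054955 was close to absent in the healthy left atrium and present in the failing one. Its level in healthy LA was 0.575 CPM (LA_0920), 0.281 (LA_0921), 0.177 (LA_1001) and 0.411 (LA_1002). In failing LA it was 44.0 (LA_0409), 40.4 (LA_0506), 29.5 (LA_0507) and 45.1 (LA_0508). Every failing LA library thus lay far above every healthy one. In healthy iSAN the gene had 10.5 CPM (SB_0920), 4.49 (SB_0921), 6.97 (SB_1001) and 7.60 (SB_1002). In failing iSAN it had 26.5 CPM (iSAN0409), 8.73 (iSAN0506), 13.8 (iSAN0507) and 10.6 (iSAN0508). The node groups overlapped, since iSAN0506 was below SB_0920. The group means were 0.361 ± 0.172 CPM in healthy LA, 39.7 ± 7.09 in failing LA, 7.40 ± 2.49 in healthy iSAN and 14.9 ± 7.996 in failing iSAN (SD, n = 4 each).

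The failing-minus-healthy difference of ENSRNOG00000054955 was 6.76 in LA (log2, SE 0.44, edgeR adjusted p = 3.3e-07) and 1.00 in iSAN (SE 0.32, edgeR adjusted p = 0.021). The iSAN value did not pass in the fit of all 38 libraries (1.06, edgeR adjusted p = 0.12). The interaction was -5.86 (SE 0.43, edgeR adjusted p = 0.0017). The order of the tissues was exchanged: iSAN was above LA by 4.34 in healthy hearts (SE 0.35, edgeR adjusted p = 0.00028) and below it by -1.52 in failing hearts (SE 0.24, edgeR adjusted p = 0.0020). The interaction passed under all 8 alternatives and in all 16 fits without a library, with values from -6.14 to -5.62 in the latter.

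The second atrium-side gene, ENSRNOG00000019780, went from a difference between the tissues to no detectable one. In healthy LA it had 0.0411 CPM (LA_0920), 0 (LA_0921), 0.133 (LA_1001) and 0.365 (LA_1002), and in failing LA 7.44 (LA_0409), 9.57 (LA_0506), 5.63 (LA_0507) and 7.75 (LA_0508). In healthy iSAN it had 4.84 CPM (SB_0920), 1.73 (SB_0921), 2.88 (SB_1001) and 4.68 (SB_1002), and in failing iSAN 10.5 (iSAN0409), 9.26 (iSAN0506), 6.90 (iSAN0507) and 4.46 (iSAN0508). The LA groups were far apart, while iSAN0508 lay below SB_0920 and SB_1002. The healthy LA values rest on at most 8.05 estimated counts per library, so the size of the fold is imprecise.

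For ENSRNOG00000019780 the difference iSAN minus LA was 4.77 in healthy hearts (log2, SE 0.48, edgeR adjusted p = 0.00066) and 0.00 in failing hearts (SE 0.30, edgeR adjusted p = 0.99). The interaction was -4.77 (SE 0.58, edgeR adjusted p = 0.015). The gene rose by 5.82 in LA (SE 0.58, edgeR adjusted p = 4.3e-06) and by 1.14 in iSAN (SE 0.41, edgeR adjusted p = 0.038). The interaction no longer passed without SB_1001 (-4.90), LA_1001 (-4.90) or LA_1002 (-5.68), with adjusted p from 0.053 to 0.071, and on log2(TPM + 1) values, where it was -0.84 unscaled and -1.06 rescaled.

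The node-side gene ENSRNOG00000002911 was detected in every node library and was at 0 in most failing left atria. In failing LA it had 0.157 CPM in LA_0409, from 3.06 estimated counts, and 0 in LA_0506, LA_0507 and LA_0508. In healthy LA it had 1.52 CPM (LA_0920), 1.92 (LA_0921), 1.73 (LA_1001) and 1.37 (LA_1002). A low level in the healthy atrium was thus lost in the failing one. The healthy level over the failing one was 48.1-fold from 154 and 3 rounded counts per group, with an exact 95% interval from 16.2 to 236 that covers counting error only. In iSAN it had 56.5 (iSAN0409), 33.3 (iSAN0506), 30.4 (iSAN0507) and 33.6 (iSAN0508) CPM in failing hearts, and 3.33 (SB_0920), 74.96 (SB_0921), 12.3 (SB_1001) and 8.68 (SB_1002) in healthy hearts. The node groups overlapped, because SB_0921 was above all failing libraries.

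The fitted interaction of ENSRNOG00000002911 was 6.77 (log2, SE 1.25, edgeR adjusted p = 0.038), a size that depends on how zeros are treated. Its difference in LA was -5.36 (SE 1.54, edgeR adjusted p = 0.010), while that of 0.64 in iSAN did not pass (SE 0.63, edgeR adjusted p = 0.44). The interaction call was lost in 14 of the 16 fits without a library, all but those without SB_0921 or LA_0921, with values from 6.19 to 9.39. Its call was also lost without the code as a block (6.001, edgeR adjusted p = 0.11), with no filter on low counts (6.77, edgeR adjusted p = 0.068), and on log2(TPM + 1), with limma adjusted p of 0.088 unscaled and 0.13 rescaled. DESeq2 gave 7.79 with an adjusted p of 2.1e-05.

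The second node-side gene, ENSRNOG00000011824, rose in the failing node. In failing iSAN it had 4.54 CPM (iSAN0409), 6.33 (iSAN0506), 7.13 (iSAN0507) and 30.2 (iSAN0508), and in healthy iSAN 1.17 (SB_0920), 0.541 (SB_0921), 1.44 (SB_1001) and 0.926 (SB_1002). In failing LA it had 1.42 CPM (LA_0409), 0.479 (LA_0506), 1.89 (LA_0507) and 1.09 (LA_0508), and in healthy LA 1.44 (LA_0920), 1.04 (LA_0921), 3.10 (LA_1001) and 2.78 (LA_1002). The node groups did not overlap and the atrium groups did. The failing-minus-healthy difference was 3.54 in iSAN (log2, SE 0.62, edgeR adjusted p = 0.00060) and -0.78 in LA (SE 0.60, edgeR adjusted p = 0.30). The interaction was 3.96 (SE 0.69, edgeR adjusted p = 0.031). It did not pass in 10 of the 16 fits without a library, those leaving out iSAN0506, LA_0506 or any healthy library, with values from 3.74 to 4.21 and adjusted p up to 0.11. It was also lost on log2(TPM + 1), with limma adjusted p of 0.051 unscaled and 0.057 rescaled.

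**Figure D3:**
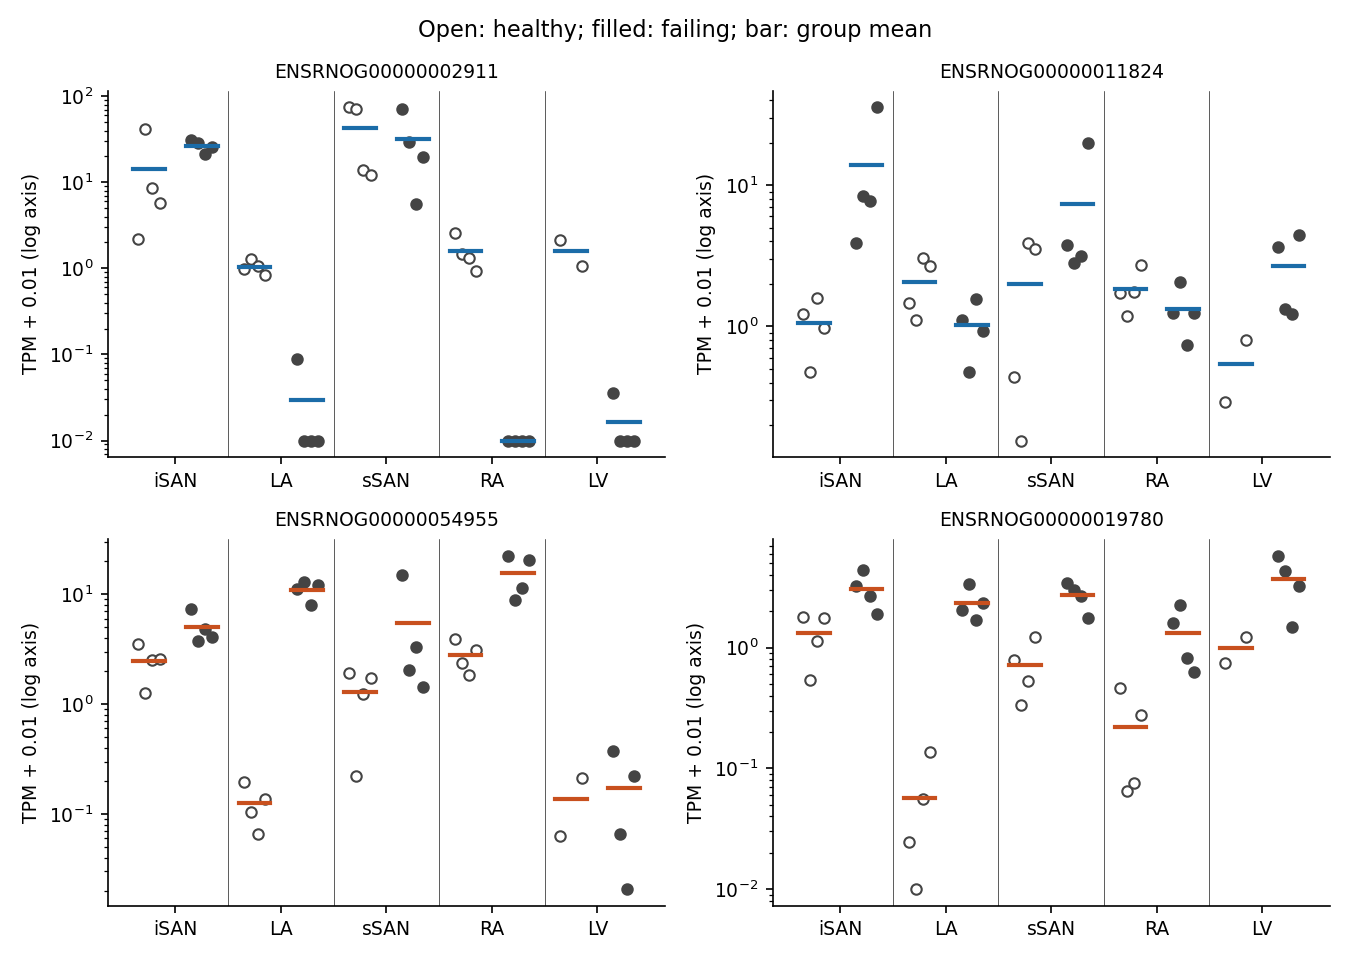
Points are single libraries, with TPM + 0.01 on a log axis and the 5 regions on the x axis; open points are healthy, filled points failing, and bars are group means (4 libraries each, 2 in healthy LV). ENSRNOG00000054955 and ENSRNOG00000019780 are low in healthy LA and high in failing LA, while ENSRNOG00000002911 is at or near 0 in all failing LA, RA and LV libraries.

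The other regions of the same series, the superior node (sSAN), the right atrium (RA) and the left ventricle (LV), gave values for these 4 genes that did not enter their choice. ENSRNOG00000002911 was at 0 in all 4 failing RA libraries, against 0.917 to 2.55 TPM (length-scaled abundance) in healthy RA, from 206 and 0 rounded counts per group. It was at least 67.2-fold lower there against a floor of 3 counts over the failing group, and the exact 95% interval of the ratio, for counting error only, had a lower limit of 54.2. In failing LV it was at 0 in 3 of 4 libraries and at 0.0256 TPM in LV_0409, against 1.04 and 2.11 TPM in the healthy ones. In sSAN it lay between 5.56 and 71.8 TPM in failing and between 12.1 and 74.7 TPM in healthy hearts. The loss was thus measured in the 3 muscle regions, while the superior node groups overlapped. ENSRNOG00000054955 had 8.79 to 22.4 TPM in failing and 1.82 to 3.93 TPM in healthy RA. In sSAN it had 1.42 to 15.1 TPM in failing and 0.211 to 1.91 TPM in healthy hearts, and it rose by 1.93 in the fit of all 38 libraries (log2, edgeR adjusted p = 0.014). The sSAN groups overlapped, and in LV both groups stayed below 0.37 TPM. ENSRNOG00000019780 had 1.47 to 5.77 TPM in failing LV against 0.735 and 1.21 TPM in the healthy ones, and 0.624 to 2.26 against 0.0553 to 0.455 TPM in RA. In sSAN it had 1.76 to 3.43 TPM in failing against 0.323 to 1.21 TPM in healthy hearts, without overlap, and it rose by 1.85 in the same fit (edgeR adjusted p = 0.0073). ENSRNOG00000011824 had 2.80 to 19.9 TPM in failing sSAN against 0.146 to 3.86 TPM in healthy sSAN, and in RA its groups overlapped.

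The same contrast was formed from 16 other libraries, as sSAN minus RA, to see how the 223 genes behaved in node and atrium pieces that did not choose them. These libraries carry the same codes. With edgeR 11 of 14761 genes passed there (0.0745%), 7 higher (0.0474%) and 4 lower (0.0271%), and 2 of the 11 were among the 223. Both were atrium-side genes other than the 4 named, 1 with the same sign and 1 with the opposite one. The number of 11 was 466 with DESeq2, and it was 0 without the code as a block, where 1666 genes had an unadjusted p under 0.05. Without 1 library it ranged from 1 (without ST_1002 or RA_1002) to 31 (without RA_0507). It was 2 without ST_0921 or RA_0921, 3 without ST_0920, RA_0920, sSAN0508 or RA_0508, and 6 without ST_1001, RA_1001, sSAN0409 or RA_0409. It was 19 without sSAN0506 or RA_0506. On unscaled log2(TPM + 1) values limma gave 54 higher and 5 lower genes.

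The signs were shared more often than over all genes, at a smaller median size. The genes were chosen for their values between iSAN and LA, and the part of that choice in the smaller size was not tested. Of 90 node-side genes tested there, 79 had a positive interaction (87.8%), against 69% of all genes with a positive value between iSAN and LA. Of 130 atrium-side genes 94 had a negative one (72.3%), against 57.7% of all genes with a negative value. The same sign with an unadjusted p under 0.05 was found for 34 node-side genes (37.8%, against 16.5%) and 29 atrium-side genes (22.3%, against 11.2%). The opposite sign with such a p was found for 2 and 2. The median interaction was 0.60 in node-side and -0.24 in atrium-side genes, against 0.04 over all genes tested in both. That last median pools genes of both signs, unlike the shares above. Whether the interaction differed between the pairs of regions was not tested. For the 4 named genes it was 8.43 (ENSRNOG00000002911), 2.04 (ENSRNOG00000011824), -1.10 (ENSRNOG00000054955) and -1.03 (ENSRNOG00000019780). None of the 4 passed, with edgeR adjusted p of 0.12, 0.27, 0.45 and 0.28.

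**Figure D4:**
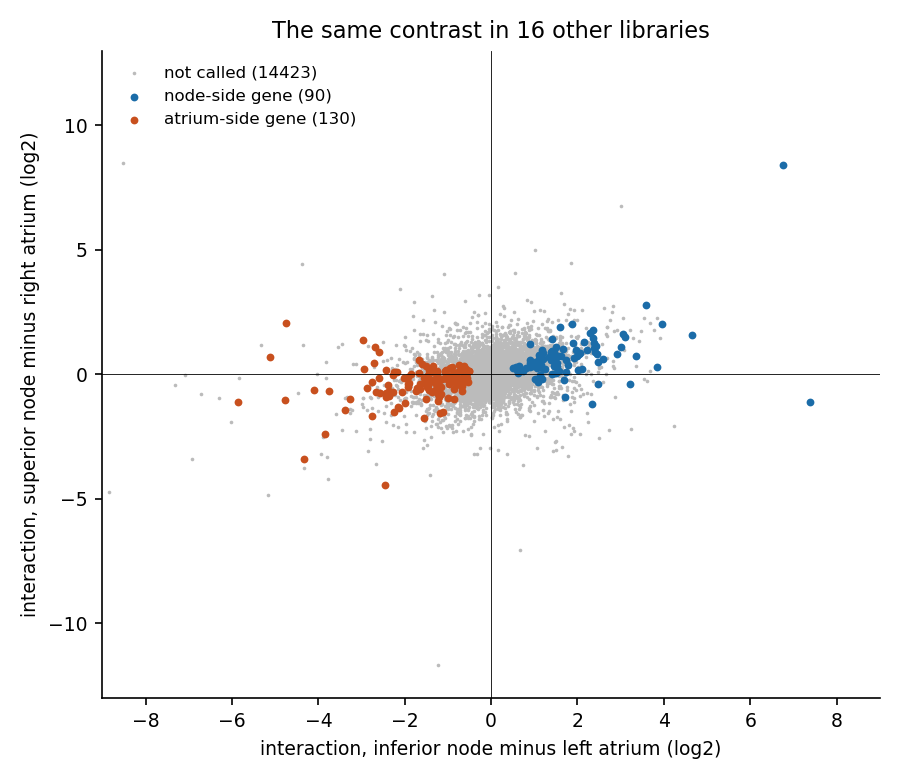
Each point is a gene tested in both fits, with the log2 interaction iSAN minus LA on the x axis and sSAN minus RA on the y axis. The 90 node-side genes lie mostly above 0 on the y axis (79 of 90) and the 130 atrium-side genes mostly below it (94 of 130), closer to 0 than on the x axis.

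The 223 genes were also followed by health state across all 5 regions. In a fit of all 38 libraries without the code, the median failing-minus-healthy difference of the node-side genes was -1.28 in LA, -0.37 in RA, -0.20 in LV, 0.00 in sSAN and 0.41 in iSAN. That of the atrium-side genes was 1.53 in LA, 0.80 in LV, 0.78 in RA, 0.33 in sSAN and 0.21 in iSAN. Over all genes tested these medians lay between 0.01 and 0.05. The values of iSAN and LA chose the genes and those of the other regions did not. In that fit 108 atrium-side genes passed as higher in LA (82.4%, against 20.6% of all genes). For node-side genes 63 passed as lower there (68.5%, against 16.9%).

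For the other regions, rises and falls were counted only where they passed in that fit. In RA 69 of the 131 atrium-side genes rose in failing hearts (52.7%, against 16.3% of all genes in that fit). There 33 of the 92 node-side genes fell (35.9%, against 14.6%). In LV, with 4 failing and 2 healthy libraries, 47 atrium-side genes rose (35.9%, against 11.5%) and 17 node-side genes fell (18.5%, against 7.58%). In sSAN 46 atrium-side genes rose (35.1%, against 10.5%), and of the node-side genes 13 rose (14.1%, against 10.5%) and 8 fell (8.7%, against 6.54%). The direction seen in LA was thus carried by a larger share of the genes than the background in RA and LV for both groups. In sSAN this held for the atrium-side genes, while the node-side genes were near the background. These counts were made with TMM scaling alone.

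**Figure D5:**
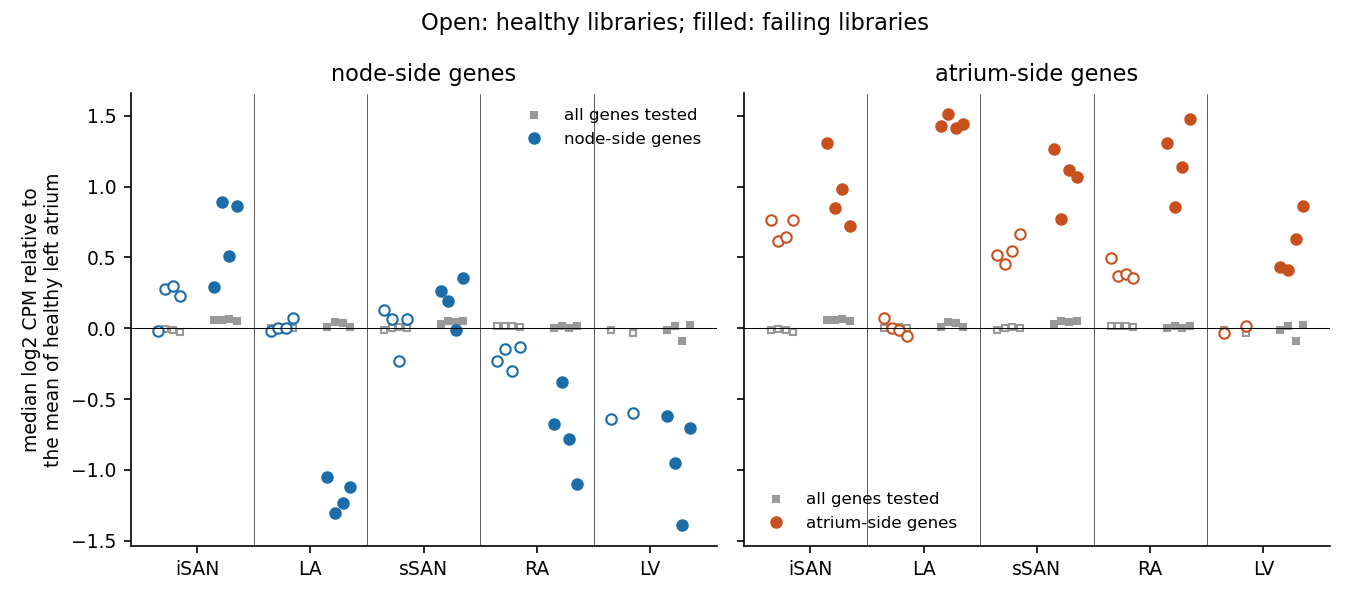
Points are single libraries: the median over 92 node-side genes (left) or 131 atrium-side genes (right) of log2 CPM relative to the gene's mean in healthy LA, with all genes tested as grey squares; filled points are failing. For node-side genes the failing LA libraries lie from -1.31 to -1.05 and the failing iSAN libraries from 0.29 to 0.89, and for atrium-side genes the failing LA libraries lie from 1.42 to 1.51 and the healthy iSAN libraries from 0.61 to 0.77.

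The level of each library showed where the groups stood to each other. The atrium-side genes stood at a median of 0.61 to 0.77 in healthy iSAN libraries relative to healthy LA, at 0.72 to 1.31 in failing iSAN and at 1.42 to 1.51 in failing LA. The failing atrium lay above the healthy node as well as above the failing node. The iSAN and LA libraries chose these genes, so their order is a description. In healthy RA these genes stood at 0.36 to 0.50 and in failing RA at 0.85 to 1.48, without overlap. The node-side genes stood at -0.02 to 0.30 in healthy iSAN and at 0.29 to 0.89 in failing iSAN, where iSAN0409 lay within the healthy range. In RA they stood at -0.30 to -0.13 in healthy and at -1.10 to -0.38 in failing libraries.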

How the data were processed

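Per the submitters' processing notes, reads were handled with Trimmomatic 0.39 and kallisto 0.48.0. For the genome build, the annotation and gene-level summing, details were not given in the sources used here. Deposited by the authors were estimated counts for 24057 genes, already scaled for transcript length (ln count over TPM split into gene and library terms with residuals up to 9.2e-15), and TPM values summing to 1000000 in every library. The deposited transcript tables were not used.

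Estimated counts were rounded, filtered with filterByExpr (minimum count 10, total 15), scaled with TMM and tested in R 4.3.3 by edgeR 4.0.16 (quasi-likelihood, robust). The p-values were adjusted over all genes by Benjamini-Hochberg, at a threshold of 0.05. The interaction and the differences between regions had the code as a block (6 residual degrees of freedom). Health effects had no block. Standard errors were derived from the test statistic. Levels are CPM, and log2 CPM used a prior count of 2. Alternatives were DESeq2 1.42.0, its size factors, no filter, limma 3.58.1 on log2(TPM + 1) and log2(TPM + 0.1), TMM-rescaled TPM, 1 fit of all 38 libraries, no block, and each library left out.

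Named genes passed for the interaction, had a mean of at least 1 log2 CPM and failing within-code differences apart from healthy ones, and had the 2 largest values in each direction. The comparison, the lists and this rule were chosen with earlier results of these data known. The gene and marker lists were not applied, because the IDs carry no names. The steps were tested on simulated counts, and 0 libraries were identical to another.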

Additional observations from a re-analysis of the deposited data

Results flagged for a closer look

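The 4 genes named by ID were chosen because their health effect differed between iSAN and LA in the interaction tested with edgeR and the code as a block, so their values restate that choice. The log2 interaction was 6.77 for ENSRNOG00000002911, 3.96 for ENSRNOG00000011824, -5.86 for ENSRNOG00000054955 and -4.77 for ENSRNOG00000019780. With 1 library left out, the call of ENSRNOG00000002911 was lost in 14 of 16 fits, that of ENSRNOG00000011824 in 10 and that of ENSRNOG00000019780 in 3. With the block, leaving out either library of a code gives nearly the same fit.

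Single libraries stood far from the other 3 of their group in 6 of 54 groups of 4 examined. A chance rate of about 1 in 20 holds for independent normal values, while these groups share libraries and genes. Beside 3 libraries at 0, any other value is flagged. For ENSRNOG00000002911 these were failing iSAN0409 with 56.5 CPM, healthy SB_0921 with 74.96 CPM, failing LA_0409 with 0.157 CPM and failing LV_0409 with 0.0599 CPM, the last 2 beside libraries at 0. For ENSRNOG00000011824 they were failing iSAN0508 with 30.2 CPM and failing sSAN0508 with 20.4 CPM, which carry the same code. The fitted interaction of ENSRNOG00000002911 was 9.39 without iSAN0409 and 9.38 without LA_0409, its partner and the only failing LA library above 0. With the block, either removal leaves the failing LA side of the interaction almost wholly to libraries at 0. The part of iSAN0409 alone was not tested.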

How the results depend on the processing

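The number of genes with an interaction between iSAN and LA, 223, was 859 with DESeq2, 119 with limma on log2(TPM + 1) and 109 after TMM rescaling of the TPM. It ranged from 2 to 491 with 1 library left out. The other settings gave 186 to 313. With no replicate block it was 139. The codes do not pair these libraries by the rule that every same-coded pair correlates above 0.1: the correlation of deviations from the group means lay between 0.0194 and 0.424 over the 8 codes, and 7 of 8 node libraries correlated best with their own code. For sSAN and RA it lay between 0.18 and 0.423. The fit of all 38 libraries, with the block, called 189 node-side and 124 atrium-side genes, and limma on log2(TPM + 0.1) called 185 and 46.

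For sSAN minus RA the number of 11 was 466 with DESeq2, 59, 36 and 2 with limma on log2(TPM + 1), log2(TPM + 0.1) and rescaled TPM, and 0 with no replicate block. It ranged from 1 to 31 with 1 library left out. The difference iSAN minus LA in healthy hearts (1839) was 1079 with limma on log2(TPM + 1) and 656 to 2691 with 1 library left out. That in failing hearts (4312) was 2258 to 4529. The health effects passed for 6217 genes in iSAN (4953 to 6606) and for 7129 in LA (6000 to 7307). Their other alternatives stayed within 1.5 times. Unscaled log2(TPM + 1) moved the split from 2952 higher and 3265 lower to 2921 and 1470 in iSAN, and from 3759 and 3370 to 1549 and 4005 in LA. The causes of these shifts were not tested. Depth limits the genes near 0 counts.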

Other observations

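ENSRNOG00000002911 varied widely among healthy node libraries of both parts. It had 2.19 (SB_0920), 41.1 (SB_0921), 8.64 (SB_1001) and 5.80 (SB_1002) TPM in iSAN. Its levels in sSAN were 74.7 (ST_0920), 72.0 (ST_0921), 14.1 (ST_1001) and 12.1 (ST_1002) TPM. Its levels in healthy LA kept to 0.828 to 1.29 TPM.

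ENSRNOG00000011824 was split among healthy superior node libraries, with 0.429 (ST_0920) and 0.146 (ST_0921) TPM against 3.86 (ST_1001) and 3.53 (ST_1002) TPM. In the left ventricle it had 1.21 to 4.45 TPM in failing and 0.281 and 0.790 TPM in healthy libraries.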
